A study of Mus musculus with 21 samples.

Results

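The MHC class II presentation genes described here are 6 rows of the deposited count table, picked by symbol from its 48474 rows: the chain genes H2-Aa, H2-Ab1 and H2-Eb1, the invariant chain Cd74, the peptide exchange factor subunit H2-DMa and the transactivator Ciita. All 6 passed the filter on low counts and were tested, among 18248 rows. Bulk RNAseq had been done on 21 mice, 11 labelled WT and 10 labelled TG (rNLS8). The tissue is neocortex in the labels and brain cortex in the study's methods, but a figure legend of the study gives hippocampus for these mice, and the name in the labels is used here. Bigenic rNLS8 mice carry NEFH-tTA and tetO-hTDP-43ΔNLS, so that human TDP-43 without its nuclear localization signal is made under a neurofilament heavy chain promoter, almost exclusively in neurons. The WT mice were littermates that carried only a single transgene, and are called wild-type below. Every mouse of both groups was 17 to 19 weeks old at a single intracerebroventricular injection of 350 µg of a non-targeting antisense oligonucleotide (ASO) in 10 µL, had received doxycycline chow (200 mg/kg) until 2 weeks after it, and was killed 3 weeks after the switch to chow without doxycycline. The labels give each mouse a batch, A or B, which the series' design text describes as independent cohorts. Cohort A held 4 wild-type and 3 rNLS8 mice, and cohort B held 7 and 7. No mouse without the oligonucleotide was analysed here, and the labels do not give the sex of a mouse.

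MHC class II molecules carry peptides from the endosomal and lysosomal pathway to the cell surface, where CD4+ T cells read them. An alpha and a beta chain pair in the endoplasmic reticulum with the invariant chain, which blocks the peptide groove and directs the complex to endosomes. There cathepsins degrade the invariant chain, and H2-DM exchanges its last fragment for other peptides. The coactivator CIITA binds no DNA itself and acts through factors seated on a conserved promoter module, the X and Y boxes. In the brain, class II is best known from border macrophages, dendritic cells and activated microglia, while resting microglia hold little of it.

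All members but Cd74 and Ciita lie on chromosome 17 of GRCm38, in the gene annotation GENCODE M21. H2-DMa spans 34119541 to 34139101, H2-Ab1 34257689 to 34269419, H2-Aa 34282744 to 34287823 (minus strand) and H2-Eb1 34305867 to 34316674. Ciita lies on chromosome 16 from 10480059 to 10528418. Each member is annotated as protein coding. Promoter stretches were taken from RefSeq (GRCm38.p6), which matched 3 of the members, H2-Aa, H2-Eb1 and H2-DMa. They are shown because the promoter module is where the transactivator acts, and only upstream bases free of annotated exons are printed. Capitals mark ATTGG (the core of the Y box, CCAAT on the other strand), an X box motif in H2-Eb1, and letters that were added to the search after the H2-Aa window had been seen, namely GGCAAC and AGCAAC as the start of an X box and TGACGTCA as a binding site of CREB factors. The stretches run 5′ to 3′ on the gene's own strand, from chr17:34287824-34288073 (minus), chr17:34305721-34305866 (plus) and chr17:34122635-34122821 (plus).
H2-Aa: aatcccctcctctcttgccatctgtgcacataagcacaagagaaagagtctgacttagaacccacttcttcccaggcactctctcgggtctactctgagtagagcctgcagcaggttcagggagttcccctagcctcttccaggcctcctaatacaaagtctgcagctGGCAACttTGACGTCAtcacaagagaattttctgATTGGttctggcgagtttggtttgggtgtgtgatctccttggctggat
H2-Eb1: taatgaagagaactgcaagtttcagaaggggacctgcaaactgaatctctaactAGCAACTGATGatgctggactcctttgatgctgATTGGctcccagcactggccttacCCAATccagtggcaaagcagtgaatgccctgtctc
H2-DMa: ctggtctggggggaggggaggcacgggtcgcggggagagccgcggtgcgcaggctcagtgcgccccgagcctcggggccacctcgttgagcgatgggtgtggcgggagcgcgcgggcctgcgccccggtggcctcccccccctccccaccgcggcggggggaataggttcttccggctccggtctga

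Counted back from the start of the gene, H2-Eb1 held AGCAACTGATG from base -92 to -82 and ATTGG from -59 to -55, with CCAAT from -35 to -31. The H2-Aa stretch held GGCAAC from base -82 to -77, TGACGTCA from -74 to -67 and ATTGG from -48 to -44. The X box motif was present in 0.968% of the 32851 promoter windows of the RefSeq table, TGACGTCA in 1.79% and ATTGG in 37.4%, each searched on both strands. AGCAAC was in 14.8% of the windows and GGCAAC in 12.5%. From the first base of the X box start, AGNAAC or with G as its first letter, to the first base of ATTGG, the distance was 34 bases in H2-Aa, 33 in H2-Eb1, 34 in H2-DMb1, 34 in H2-Oa and 31 in H2-Ob. The H2-DMb2 window held ATTGG from -90 to -86 but no such pair, and neither did the H2-DMa windows. A pair 28 to 38 bases apart on the same strand was present in 1.19% of all windows, a distance range that was set after these genes had been seen. The printed H2-DMa stretch, 77% G and C, held none of the letters searched. A further RefSeq window of H2-DMa, whose gene start lies at base 34125518, held ATTGG from -198 to -194. These matches describe letters only.

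Total counts were between 20700912 and 22263809 per mouse, and the median was 21076278 for wild-type and 21451125 for rNLS8 mice. Tardbp, which encodes TDP-43, was higher in rNLS8 mice by 0.62 on the log2 scale (adjusted p = 1.5e-07). This check of the genotype labels differed between the cohorts: in cohort B Tardbp was higher by 0.79 (adjusted p = 1.42e-10), and in cohort A its log2 difference was 0.26 (adjusted p = 0.191), where the 4 wild-type mice averaged 2371 ± 188 (SD) normalized counts and the 3 rNLS8 mice 2786 ± 378 (SD). The difference between the cohorts, A minus B, was -0.56 on the log2 scale (s.e. 0.10, edgeR adjusted p = 0.133). The rNLS8 mouse with the least Tardbp, T61340, had 2363 normalized counts, within the wild-type range of 2253 to 2827, so that this library labelled TG goes against its label in this gene. Without it, the members' calls were as with it, at 0.60 for H2-DMa, 0.51 for Cd74, 0.56 for H2-Ab1, 0.49 for H2-Eb1 and 0.27 for H2-Aa on the log2 scale. Slc17a7, a marker of excitatory neurons of the cortex that the hippocampus also expresses, was present in every mouse, with at least 24029.6 normalized counts, and does not tell these tissues apart. The summed choroid plexus markers ranged from 20.6 to 2217 CPM in wild-type and from 29.5 to 1128 CPM in rNLS8 mice, so that the dissected pieces differed widely in this tissue. The rNLS8 mice T60303 and T61340 stand apart in many other genes, and results that change without them are given below. For normalized counts, each count was scaled by the effective size of its library relative to the mean of these sizes. The log2 fold change (log2FC) is rNLS8 minus wild-type, s.e. is its standard error, and adjusted p-values are those of edgeR's quasi-likelihood test.

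Transcripts of 4 members were more abundant in rNLS8 than in wild-type cortex, and none was less abundant. H2-DMa, Cd74, H2-Ab1 and H2-Eb1 passed the adjusted p threshold of 0.05, and H2-Aa and Ciita did not. Over all rows tested, 23% passed in this direction and 44.7% in either, so that a changed gene was a frequent outcome in this comparison. The median log2FC of the members was 0.50, and that of all rows tested was 0.00. In bulk tissue, more cells of a type and more RNA per cell cannot be told apart.

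**Figure D1:**
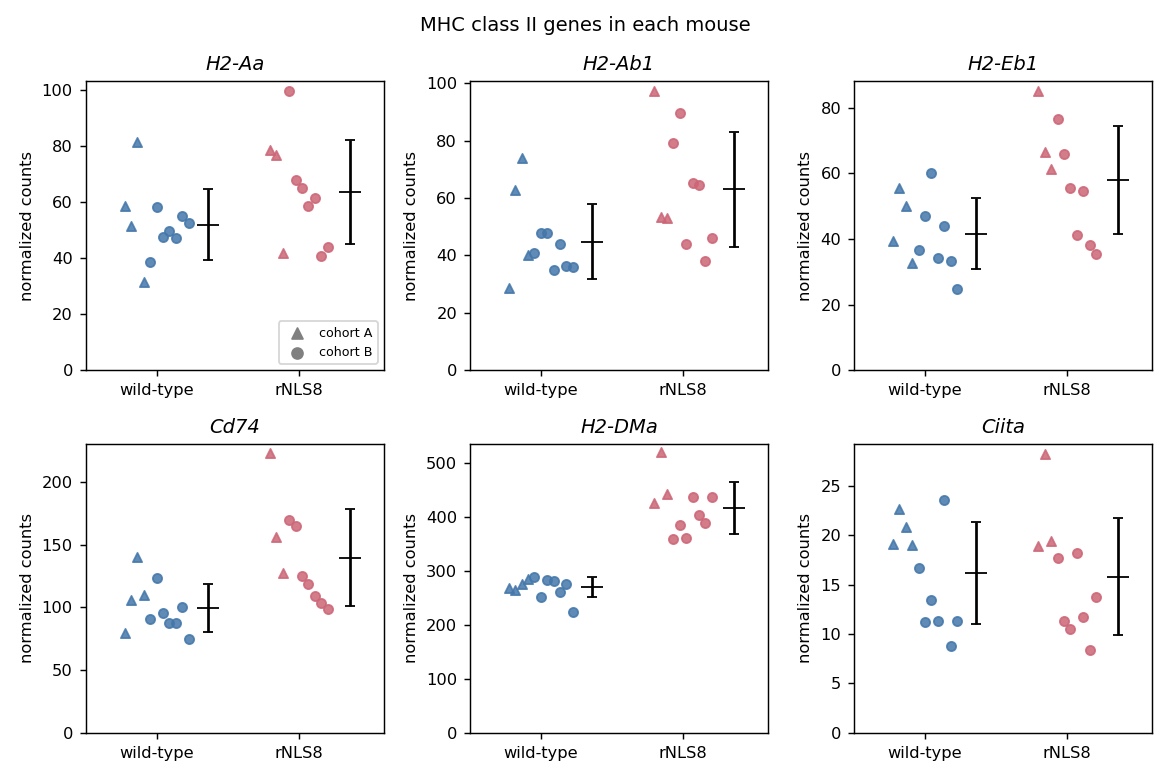
Normalized counts of the 6 MHC class II genes (vertical axes, starting at 0) in each of 11 wild-type and 10 rNLS8 mice, with triangles for cohort A and circles for cohort B; the crossbars show the mean and SD. The genotypes separate only in H2-DMa, where the highest wild-type mouse is at 289.2 and the lowest rNLS8 mouse at 358.7.

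H2-DMa, the alpha subunit of the peptide exchange factor, set the genotypes apart in every mouse. The wild-type range was 224.4 to 289.2 normalized counts, with a median of 275.4, and the rNLS8 range was 358.7 to 520.5, with a median of 415.1. The 10 rNLS8 mice were all above the highest wild-type mouse. Among all rows tested, 3.85% had every rNLS8 mouse above every wild-type mouse. The means were 269 ± 18.6 (SD, n = 11) and 416 ± 48.1 (SD, n = 10), a log2FC of 0.63 (s.e. 0.06, adjusted p = 3.22e-09). The highest value, 520.5 in mouse T61340, lay well above the next, 442.8. Leaving out each mouse in turn gave log2FC values between 0.60 and 0.65. H2-DMa lies beside Brd2, a chromatin reader on the opposite strand. Exons of Brd2 share 360 bases with annotated H2-DMa exons and 0 with those of its coding transcripts that GENCODE tags as basic. Brd2 itself had 3788 ± 204 (SD) and 4357 ± 270.3 (SD) normalized counts, a log2FC of 0.20 (s.e. 0.04). Whether counting used the strand is not given in the sources used here, and the part of Brd2 reads in the H2-DMa value was not tested.

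Cd74, the invariant chain and chaperone of class II, on chromosome 18 from 60803848 to 60812652, had the lowest adjusted p after H2-DMa. Its normalized counts were between 75.1 and 139.8 in wild-type mice, with a median of 95.3, and between 98.9 and 223.0 in rNLS8 mice, with a median of 126.4. The groups overlapped, and 4 of 10 rNLS8 mice were above every wild-type mouse. The rNLS8 mice T60303, T_69524, T_69526 and T61340 were the highest, and the highest wild-type mouse was T61334. The means of 99.5 ± 19.2 (SD, n = 11) and 139.7 ± 38.7 (SD, n = 10) gave a log2FC of 0.50 (s.e. 0.12, adjusted p = 0.0018). Without mice T60303 and T61340 the log2FC was 0.39 (adjusted p = 0.0157).

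H2-Ab1, the beta chain of the I-A molecule, ranged from 28.7 to 74.1 normalized counts in wild-type mice, with a median of 40.7, and from 38.1 to 97.3 in rNLS8 mice, with a median of 58.9. The groups overlapped broadly, with 3 rNLS8 mice, again T60303, T_69526 and T_69524, above the highest wild-type mouse, T61334. From 44.8 ± 13.2 (SD, n = 11) to 63.0 ± 20.0 (SD, n = 10), the log2FC was 0.51 (s.e. 0.17, adjusted p = 0.0172). The call was close to the threshold: without mouse T60303 the log2FC was 0.43 with an adjusted p of 0.0529, without T60303 and T61340 it was 0.47 with 0.0462, and without T_70267 as well it was 0.51 with 0.0366.

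H2-Eb1, the beta chain of the I-E molecule, ranged from 24.7 to 60.1 normalized counts in wild-type mice, with a median of 39.3, and from 35.3 to 85.1 in rNLS8 mice, with a median of 58.3. Of the 10 rNLS8 mice, 5 were above every wild-type mouse, and the rest, T_70267 the lowest, lay within the wild-type range. From 41.5 ± 10.8 (SD, n = 11) to 58.0 ± 16.4 (SD, n = 10), the log2FC was 0.49 (s.e. 0.16, adjusted p = 0.0128). Leaving out both T60303 and T61340 ended this call (0.41, adjusted p = 0.0632), while leaving out T_70267 as well kept it (0.47, adjusted p = 0.0325), as did leaving out any single mouse. H2-Ea, the alpha chain that would pair with it, had no count in any mouse, and GENCODE lists H2-Ea-ps in this reference as a polymorphic pseudogene.

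H2-Aa, the alpha chain of I-A, did not pass the threshold. Its normalized counts were between 31.6 and 81.4 in wild-type mice, with a median of 51.4, and between 40.9 and 99.7 in rNLS8 mice, with a median of 63.2. Only rNLS8 mouse T_69524 was above the highest wild-type mouse. The means were 51.9 ± 12.6 (SD, n = 11) and 63.4 ± 18.6 (SD, n = 10), and the log2FC was 0.30 (95% interval -0.03 to 0.63, adjusted p = 0.135). This interval includes the values of the other chains. The log2 ratio to H2-Aa within each mouse was higher in rNLS8 mice by 0.21 for H2-Ab1, 0.20 for H2-Eb1, 0.21 for Cd74 and 0.36 for H2-DMa. None of these 4 differences passed the exact permutation test within cohort (p between 0.0745 and 0.232, two-sided, adjusted p = 0.232 for each), so that a difference in response between H2-Aa and the other members was not shown.

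Ciita, the transactivator of class II genes, was the lowest member, and its levels were alike in range in both genotypes. Normalized counts were between 8.82 and 23.6 in wild-type mice, with a median of 16.7, and between 8.36 and 28.2 in rNLS8 mice, with a median of 15.7. A single rNLS8 mouse, T61340, was above the wild-type range. The means were 16.2 ± 5.18 (SD, n = 11) and 15.8 ± 5.88 (SD, n = 10), with a log2FC of 0.00 (95% interval -0.35 to 0.36, adjusted p = 0.992). Its counts over all mice of a group summed to 171 and 163, and counting alone would give a coefficient of variation of about 25.4% and 24.8%. Exons of Ciita share 329 bases with Dexi on the opposite strand, 111 of them in coding transcripts that GENCODE tags as basic. Dexi had 532.5 ± 59.9 (SD) and 489.6 ± 82.9 (SD) normalized counts, well above Ciita, and the part of its reads in the Ciita value was not tested.

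Per kilobase of exon in coding transcripts that GENCODE tags as basic, H2-DMa had the highest level in wild-type cortex, 4.73 ± 0.33 CPM per kb (SD, n = 11). Cd74 followed at 3.29 ± 0.63, H2-Aa at 2.16 ± 0.52, H2-Ab1 at 1.73 ± 0.51 and H2-Eb1 at 1.17 ± 0.30, while Ciita was at 0.092 ± 0.029 CPM per kb. The ranges over wild-type mice of H2-DMa (3.94 to 5.08) and Cd74 (2.49 to 4.62) overlapped, and those of the chains overlapped with each other, so that only Ciita stood clear of its neighbour. The order of these levels was the same in rNLS8 mice, with 7.30 ± 0.84 for H2-DMa and 4.62 ± 1.28 for Cd74 (SD, n = 10).

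The members also differed in how much they varied between mice of a genotype. The coefficient of variation of H2-DMa was 6.91% in wild-type and 11.6% in rNLS8 mice, against 6.2% and 4.82% from counting alone. H2-Aa, H2-Ab1 and H2-Eb1 varied by 24.3% to 29.4% in wild-type and 28.4% to 31.8% in rNLS8 mice, where counting alone would give at most 15.8% and 12.9%. Cd74 varied by 19.3% and 27.7%.

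After the mean of each genotype and cohort had been subtracted from log2 CPM, H2-Ab1, H2-Eb1 and Cd74 deviated together across the 21 mice, and no such relation was found for H2-DMa. Cd74 and H2-Ab1 had a Pearson r of 0.80 (permutation p = 0.00022, adjusted p = 0.0033 over 15 pairs of members) and a Spearman rho of 0.75 (permutation p = 0.00109, adjusted p = 0.0112). Without the 2 mice farthest from the median, r was 0.74. H2-Ab1 and H2-Eb1 had an r of 0.70 (permutation p = 0.00071, adjusted p = 0.00532) and a rho of 0.70 (permutation p = 0.0015, adjusted p = 0.0112), with 0.74 without the 2 farthest mice. H2-Eb1 and Cd74 had an r of 0.68 (permutation p = 0.00147, adjusted p = 0.00735) and a rho of 0.64 (permutation p = 0.00421, adjusted p = 0.021), with 0.68 without the 2 farthest mice. H2-Aa had an r of 0.54 to 0.62 with these 3 genes. The adjusted permutation p for r was 0.141 with H2-Ab1, 0.0248 with H2-Eb1 and 0.0437 with Cd74, while that for rho missed the threshold in each pair (0.0769 to 0.145). H2-DMa had an r between -0.30 and -0.15 with the chains and Cd74, and no pair of H2-DMa or Ciita passed (adjusted permutation p for r between 0.35 and 0.84). Paired values of a mouse share its library and dissection, and cell markers moved with them. The summed level of the border macrophage markers, treated in the same way over the 21 mice, had an r of 0.49 to 0.54 with the 3 chains and Cd74 and of -0.64 with H2-DMa. That of the blood markers had an r of 0.64 with H2-Eb1, and that of the fibroblast markers 0.51 with H2-Aa, 0.53 with Cd74 and -0.56 with H2-DMa. Other lists reached like values, with -0.64 for astrocyte markers and H2-DMa, 0.54 for dendritic cell markers and H2-Ab1, and -0.53 for oligodendrocyte markers and H2-Eb1. Microglia markers had an r of 0.23 to 0.46 with the chains and Cd74. The part of these markers in the relation between members was not tested.

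**Figure D2:**
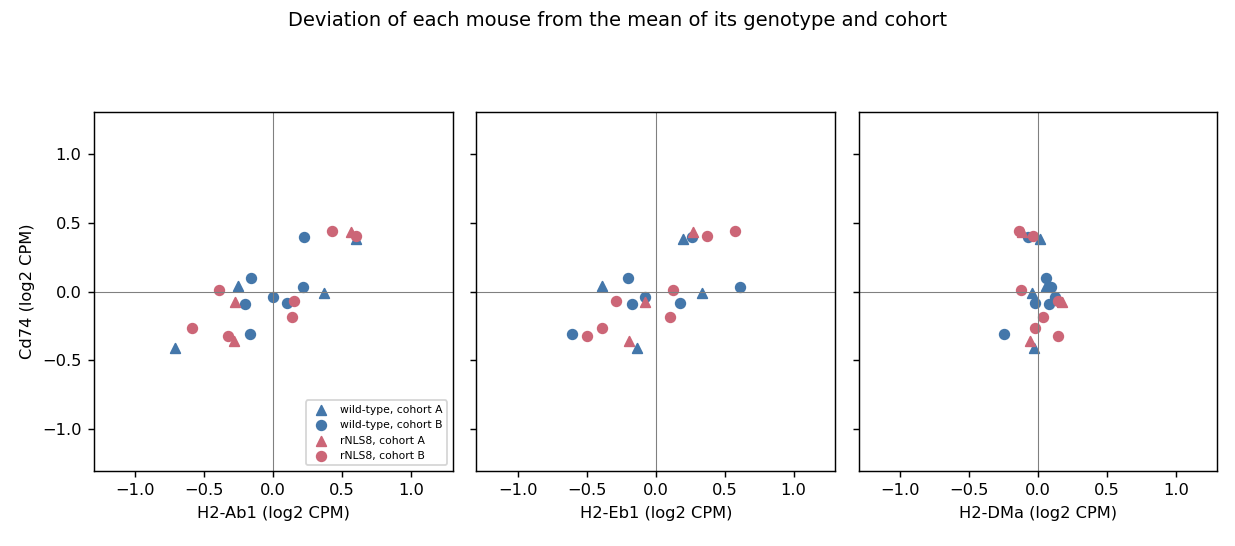
Deviation of log2 CPM from the mean of the mouse's genotype and cohort, for Cd74 (vertical axes) against H2-Ab1, H2-Eb1 and H2-DMa (horizontal axes), 1 point per mouse, colored by genotype and shaped by cohort. Cd74 follows H2-Ab1 (r = 0.80) and H2-Eb1 (r = 0.68), while the points for H2-DMa stay in a narrow upright band (r = -0.19).

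Of 14575 other genes with a mean of at least 50 counts, those whose deviations were most like those of the 6 members over the 21 mice, by mean Pearson r, were Sod3 (0.49), Pltp (0.48), Pold2 (0.48), Naglu (0.47), 1810058I24Rik (0.47), Nudt14 (0.46), Lrp10 (0.45), Kank2 (0.44), Ccdc51 (0.44) and Hexa (0.44). Their likeness was mostly to the chains and Cd74, with r between 0.45 and 0.77, while r was between 0.01 and 0.63 with Ciita and between -0.16 and 0.39 with H2-DMa. Sod3 encodes extracellular superoxide dismutase, Pltp a phospholipid transfer protein, and Naglu and Hexa lysosomal hydrolases. Of these 10 genes, Naglu, Lrp10 and Hexa passed the genotype test as higher, by 0.27, 0.25 and 0.27 on the log2 scale, and Nudt14 as lower, by -0.41.

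Both cohorts gave the same direction for each member except Ciita. In cohort A alone, with 4 and 3 mice, only H2-DMa passed the test (log2FC 0.79, s.e. 0.12, adjusted p = 0.00203), where 6.99% of rows were called higher. Cd74 and H2-Eb1 had larger log2FC values there, 0.66 and 0.70, without passing (adjusted p = 0.0833 and 0.0798). In cohort B alone, where 19.3% of rows were called higher, H2-DMa (0.56, adjusted p = 2.7e-06), H2-Ab1 (0.56, adjusted p = 0.0173) and Cd74 (0.42, adjusted p = 0.0178) passed, and H2-Eb1 did not (0.39, adjusted p = 0.136). H2-Aa had 0.26 in cohort A and 0.32 in cohort B, and Ciita 0.14 and -0.08. No row passed the test of a difference between the cohorts in edgeR, and 1030 had an unadjusted p under 0.05.

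**Figure D3:**
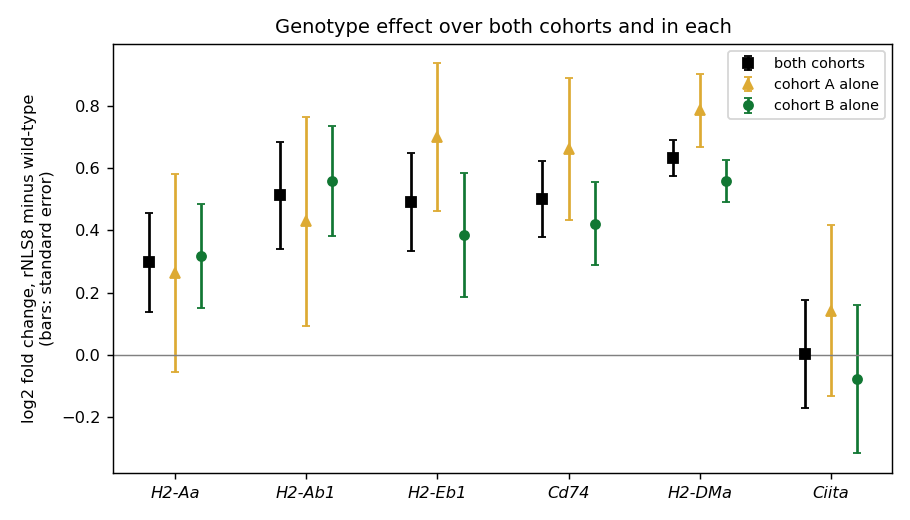
Log2FC, rNLS8 minus wild-type, of each member (vertical axis, bars show the standard error) over both cohorts, in cohort A alone and in cohort B alone. H2-DMa lies above the other members in all 3 fits, from 0.56 to 0.79, except that H2-Ab1 reaches the same 0.56 in cohort B.

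Rows for further copies of a symbol, written with a suffix, bear on how these counts may be read. H2-Aa-2, H2-Ab1-2 and H2-Eb1-2 held 98%, 98.3% and 95.5% of the counts of their symbols, and their counts followed those of the symbol mouse by mouse far more closely than independent counts would (chi-square per mouse 0.048, 0.038 and 0.287). These 3 rows thus do not count reads independently of their symbols. Reads repeated in both rows and reads split evenly between them would look alike here, and which was done was not tested. For H2-DMa the match was looser. H2-DMa-2 held 87.0% of the symbol's counts, with a chi-square per mouse of 3.49 and equal counts in 0 mice. H2-DMa-3 and H2-DMa-4 held 21.3% and 22.7%. The absolute levels of these genes are uncertain. The genotype differences of the copies were close to those of the symbols, 0.30 for H2-Aa-2 (adjusted p = 0.137), 0.55 for H2-Ab1-2 (adjusted p = 0.0117), 0.43 for H2-Eb1-2 (adjusted p = 0.0272) and 0.61 for H2-DMa-2.

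Other genes of the class II pathway were described from a list of 46 symbols, of which 43 had a row in the count table. Of these rows 36 passed the filter on low counts: 22 were higher, 4 lower and 10 not called, with a median log2FC of 0.30. That is 61.1% higher, beside 23% of all rows. Among the other class II subunits, H2-Ob, the beta chain of the H2-DM inhibitor H2-O, had 8.5 ± 3.05 (SD) normalized counts in wild-type cortex and 14.7 ± 4.37 (SD) with the transgenes (log2FC 0.80, adjusted p = 0.00316). H2-DMb1, a partner of H2-DMa, went from 34.4 ± 12.5 (SD) to 44.7 ± 8.51 (SD), a log2FC of 0.43 (adjusted p = 0.0106). H2-Oa, with 70 counts over the wild-type and 122 over the rNLS8 mice, and H2-DMb2, with 102 and 85, were below the filter on low counts. Without the filter, in a fit of 35145 rows, the log2FC was 0.87 for H2-Oa (adjusted p = 0.00741) and -0.24 for H2-DMb2 (adjusted p = 0.605).

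Of 9 genes of antigen processing, namely proteases, a reductase and the cystatins Cst3 and Cst7 that inhibit proteases, 8 were higher. Ctss, the cathepsin that trims the invariant chain, had between 1173 and 1412 normalized counts in wild-type mice and between 1522 and 2969 in rNLS8 mice, without overlap (log2FC 0.86, adjusted p = 5.56e-10). Ifi30, a lysosomal thiol reductase, rose by 1.20 on the log2 scale, and the proteases Ctsd and Ctsz by 0.71 and 0.65. Cst7, a cystatin that inhibits cathepsins, had 0 to 7.22 normalized counts in wild-type and 14.7 to 136.1 in rNLS8 mice (log2FC 4.0, adjusted p = 2.6e-08). Ctsb, another cathepsin, was not called (-0.05, adjusted p = 0.446).

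Among genes of surface turnover and costimulation, 4 of 8 tested were higher and 1 was lower. Cd274, the inhibitory ligand PD-L1, and Icosl, a costimulatory ligand, rose by 1.26 and 1.15 on the log2 scale. Cd86, a ligand of CD28, and Lag3, an inhibitory receptor that binds class II, rose by 0.48 and 0.70. Marchf1, the ubiquitin ligase that removes class II from the surface, fell by 0.29 on the log2 scale (adjusted p = 0.00178). Cd80 had a log2FC of -0.09 (adjusted p = 0.74) and Cd83 one of 0.16 (adjusted p = 0.0585).

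The factors seated on the X and Y boxes did not share a direction. All 3 members of the RFX complex were higher, Rfx5 by 0.53 (adjusted p = 4.05e-09), Rfxank by 0.28 and Rfxap by 0.24 on the log2 scale. Of the NF-Y subunits, which bind the Y box, Nfyb fell by 0.59 (adjusted p = 5.77e-10) and Nfyc by 0.16 (adjusted p = 0.00511), and Nfya had 0.11 (adjusted p = 0.114). These factors are widely expressed and serve many other genes. Along the interferon gamma axis, the classical inducer of Ciita, 5 of 9 tested genes were higher and 1 was lower. The receptor chains Ifngr2 and Ifngr1 rose by 0.78 and 0.31 on the log2 scale, and Irf8 and Irf1 by 0.70 and 0.35. Ifng itself had 0 counts in wild-type mice, which at 3 counts over the group allows up to 0.0129 CPM, and 2 counts in rNLS8 mice.

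**Figure D4:**
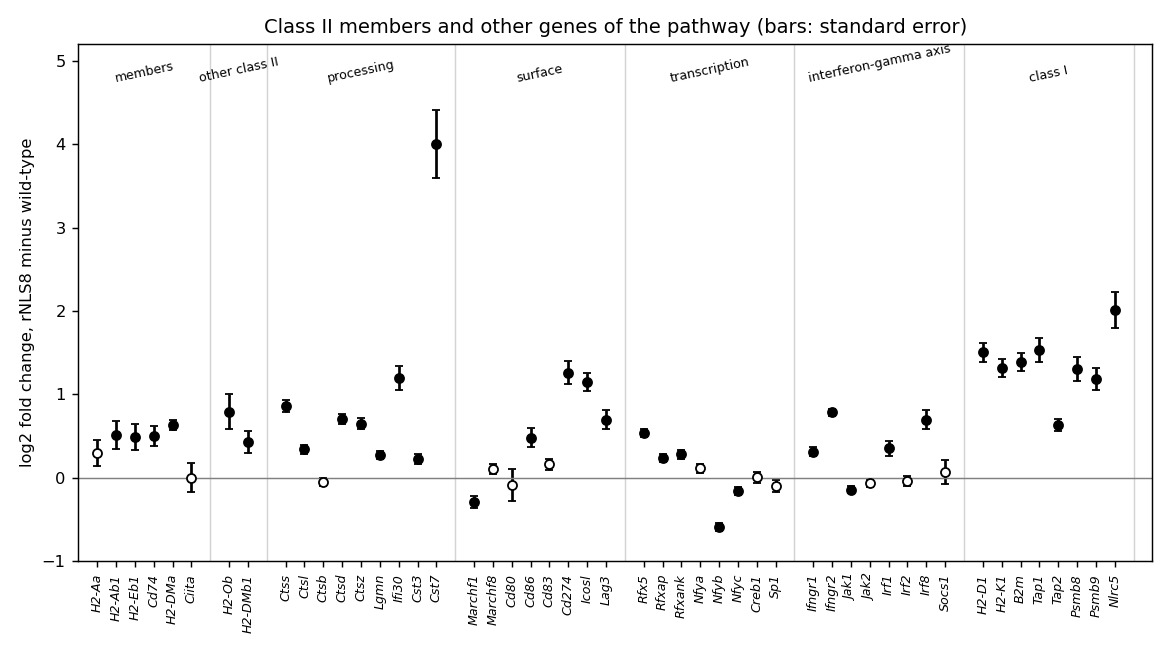
Log2FC, rNLS8 minus wild-type (vertical axis, bars show the standard error), of the 6 members, tested genes of the class II pathway list by role, and 8 class I genes; filled points passed the adjusted p threshold of 0.05. The members lie between 0.00 and 0.63, 7 of the 8 class I genes lie at 1.18 or higher, and Cst7 is the highest point at 4.0.

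All 8 class I presentation genes that were compared were higher in rNLS8 mice, with a median log2FC of 1.35 and a range from 0.63 to 2.01. The log2FC of 7 of them was at least 1.18, the value of Psmb9, and lay above that of every class II member, while Tap2, a subunit of the peptide transporter, had 0.63, the same as H2-DMa. Nlrc5, the class I transactivator and relative of Ciita, had 15.9 ± 7 (SD) normalized counts in wild-type cortex and 63.4 ± 32.3 (SD) with the transgenes, a log2FC of 2.01 (s.e. 0.21, adjusted p = 3.96e-08). Ciita, at a like wild-type level of counts, had 0.00. B2m, the class I light chain, rose by 1.39 and H2-K1, a class I heavy chain, by 1.32 on the log2 scale. The difference between class I and class II genes was not itself tested.

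Markers of the cells that could hold class II are given beside these values. Of the 8 microglia markers, 4 were higher and 1, P2ry12, was lower, with a median log2FC of 0.13, and their summed level was 352 to 398 CPM in wild-type and 373 to 499 CPM in rNLS8 mice. Of the 7 border macrophage markers, 0 passed the test over both cohorts in edgeR and 0 in DESeq2 (log2FC values between 0.02 and 0.53), while 2, Lyve1 and Ms4a7, had an unadjusted p under 0.05 in edgeR. In cohort A alone their log2FC values lay between 0.12 and 0.92, and Lyve1 was called (0.92, edgeR adjusted p = 0.0489). In cohort B alone they lay between -0.10 and 0.40, and none was called. The summed level of the 7 markers was 8.58 to 15.5 CPM in wild-type and 9.69 to 18.5 CPM in rNLS8 mice. With the summed border macrophage level as a covariate, an alternative added after the data were seen, the log2FC was 0.66 for H2-DMa (adjusted p = 3.96e-09), 0.39 for Cd74 (adjusted p = 0.00704), 0.40 for H2-Ab1 (adjusted p = 0.052) and 0.36 for H2-Eb1 (adjusted p = 0.0519). The calls of H2-Ab1 and H2-Eb1 were thus lost, and those of H2-DMa and Cd74 were not. With the choroid plexus level as covariate, the 4 calls held (H2-Ab1 0.48, H2-Eb1 0.48, Cd74 0.48 and H2-DMa 0.64).

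Some defining markers of T cells and dendritic cells were near 0. Cd3e, Cd3d and Cd3g had 10, 3 and 5 counts over all wild-type and 6, 6 and 12 over all rNLS8 mice, and Cd8a had 5 and 18. Trac, of the same T cell list, had 59 counts over the wild-type and 68 over the rNLS8 mice, with at least 1 in every mouse. Below the filter on low counts as well, it had a log2FC of 0.23 in the fit without the filter (adjusted p = 0.646). Xcr1 and Clec9a had 2 and 2 counts in wild-type and 1 and 7 in rNLS8 mice. Itgax, which encodes CD11c and is used as a marker of dendritic cells and of activated microglia, rose from 4.9 ± 2.48 (SD) to 41.7 ± 38.8 (SD) normalized counts (log2FC 3.07, adjusted p = 6.01e-08). Of the other dendritic cell markers tested, Zbtb46 was lower by -0.25, and Flt3, Cd209a and Batf3 were not called. Of the lymphocyte markers tested, Ighm was lower by -0.85 and Cd4 by -1.24, and Lck was higher by 0.64. Of the 5 monocyte markers, the 2 that passed the filter, Ly6c2 (log2FC 0.58, adjusted p = 0.22) and S100a4 (log2FC 0.02, adjusted p = 0.932), were not called. Ccr2, Plac8 and Chil3 had 49, 16 and 6 counts over the wild-type and 88, 148 and 23 over the rNLS8 mice, below the filter. In the fit without it all 3 were higher, Plac8 by 3.17 (adjusted p = 6.41e-07), Ccr2 by 0.88 (adjusted p = 0.0122) and Chil3 by 1.80 (adjusted p = 0.0333) on the log2 scale, and for Plac8 9 of 10 rNLS8 mice were above every wild-type mouse. Of the 5 choroid plexus and 4 blood markers, 0 passed the test in edgeR or DESeq2, and 0 had an unadjusted p under 0.05 in edgeR. The 5 choroid plexus markers had log2FC values below 0 in cohort A and above 0 in cohort B, which the pooled values do not show. Kl was at -1.65 in A and 0.74 in B (unadjusted p of the difference between cohorts 0.00717), Kcnj13 at -1.69 and 0.55 (0.00407) and Ttr at -1.49 and 1.19 (0.0607), and over all genes the adjusted p of the difference was 0.853 for Kl and Kcnj13 and 0.875 for Ttr. The part of these cells in the class II values was not tested beyond the covariate fits.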

How the data were processed

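RNA of 21 mouse cortices (neocortex per the labels) had been prepared as mRNA libraries and sequenced paired-end. According to the methods, RNA with adequate integrity was aligned to GRCm38 and analyzed with DESeq2. The submitters' processing notes name mm10, HISAT2, Bowtie2 and RSEM, but the counting program, strand setting and covariates are not given in the sources used here. The table the authors deposited holds raw read counts, as whole numbers for each gene symbol. Of 48474 rows, 13329 had no count, and 2536 rows of further copies held 4.11% of counts.

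The counts were tested with edgeR 4.0.16 in R 4.3.3 (filterByExpr with minimum count 10 and total 15, TMM, quasi-likelihood test with cohort and genotype in the model, two-sided, Benjamini-Hochberg adjustment over 18248 rows, threshold 0.05). Log2 CPM used a prior count of 2. Correlations were permuted 100000 times within genotype and cohort. The scripts were tested on simulated data. Mice were separate animals, and groups came from the labels. Reads carried no molecular identifiers, so the limit of 3 counts covers counting error only. Alternatives were DESeq2 1.42.0, other scalings, filters, covariates and subsets of mice. Members and lists were chosen with earlier results of these data known. Named genes were the members with their copies, the class II pathway list, the class I genes, cell type markers, and the 10 genes most like the members with a mean of at least 50 counts. Some genes of these lists are counted but not reported here by name.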

Additional observations from a re-analysis of the deposited data

Results flagged for a closer look

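Of 51 groups of rNLS8 values looked at for a mouse far from the rest (the gap to the nearest mouse as a share of the group's range, beyond Dixon's critical value), 10 had such a mouse. Chance gives about 2.55 only if the 10 rNLS8 mice are alike and the genes independent, and here the mice of both cohorts were pooled. Every far value was that of T60303 or T61340, both of cohort A. The remaining rNLS8 mouse of that cohort, T61342, was the far mouse in none of these genes. The part of the cohort in these values was not tested. Among the members, H2-DMa had its highest rNLS8 mouse, T61340, at 520.5 normalized counts against 442.8 for the next, a share of 0.481. Mouse T60303 was the far highest in 7 genes, Cst7 (0.624), Cd86 (0.649), Cd274 (0.600), Icosl (0.473), Irf8 (0.485), Psmb9 (0.488) and Nlrc5 (0.735). Mouse T61340 was the far lowest in Creb1 (0.602) and Sp1 (0.541). Wild-type mice, being 11, were not looked at in this way.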

How the results depend on the processing

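The direction of H2-Aa, H2-Ab1, H2-Eb1, Cd74 and H2-DMa held under every alternative run, and the call of H2-DMa did too. Leaving out each mouse in turn gave 0.20 to 0.37 for H2-Aa, 0.43 to 0.59 for H2-Ab1, 0.42 to 0.58 for H2-Eb1, 0.42 to 0.56 for Cd74, and -0.076 to 0.11 for Ciita, whose sign turned without any of 10 mice; only H2-Ab1 lost its call, without rNLS8 mouse T60303. In cohort A alone, calls were lost by H2-Ab1 (0.43), H2-Eb1 (0.70) and Cd74 (0.66), and 2195 rows were called in all, against 8154 over both cohorts. In cohort B alone H2-Eb1 lost its call (0.39) and Ciita was at -0.077. Without rNLS8 mice T60303 and T61340, H2-Eb1 lost its call (0.41) and Ciita was at -0.069. Without T_70267 as well, H2-Eb1 and H2-Ab1 passed (0.47 and 0.51) and Ciita was at -0.078. Ciita was at -0.034 without cohort in the model and at -0.064 with Xist as covariate. With the border macrophage level as covariate, H2-Ab1 (0.40) and H2-Eb1 (0.36) lost their calls. The subsets held fewer mice, and the cause of these changes was not tested. Scaling by library size only moved the higher share of calls from 51.4% to 67.9% and the median of all rows to 0.08, and gave 0.38 for H2-Aa (adjusted p = 0.0585). Differences between the cohorts turned sign without a single mouse for H2-Aa (range -0.28 to 0.15), H2-Ab1 (-0.52 to 0.065), Cd74 (-0.047 to 0.37) and Ciita (-0.023 to 0.29). No paired analysis was possible because each mouse number belongs to 1 mouse. The exact permutation test kept for members under 10 counts was not needed, since every member passed the filter. Depth limits Ciita most.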
